A study of Mus musculus with 6 samples.

Results

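Microglia, the resident macrophages of retina and brain, and other macrophages of the eye were followed through 38 genes chosen by name, of 22558 genes in the authors' table. All 38 were found in the table and all 38 passed the filter on low counts, as did 14919 genes in all. RNA of whole eyes was sequenced from mice at postnatal day 21. The samples were 3 of knockout eyes (BCKO, genotype BC027072 -/-, strain C57BL/6), compared with 3 of wild type eyes (B6, strain C57BL/6). BC027072 is the mouse counterpart of human PCARE, a ciliary gene of photoreceptors in which mutations cause retinitis pigmentosa. Neither the construction of the knockout allele nor the sex of the mice is given in the labels, which also do not say whether replicates are separate animals, so each p-value below speaks only of the spread among these 6 libraries, part of which may be technical.

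Microglia live on signals through the receptor Csf1r and keep a resting, surveying state marked by genes such as P2ry12, Tmem119 and Cx3cr1. They take up debris through Fc receptors and the Trem2 receptor, which pass signals on through the small adaptors Tyrobp and Fcer1g, and break it down with lysosomal proteases such as cathepsin S. In degenerating retina, microglia are known to move towards dying photoreceptors, clear them, and shift from the resting state towards a phagocytic one. The 38 genes were grouped by these roles into 9 homeostatic genes, 12 genes of macrophage identity and adhesion, 8 phagocytic receptors and signalling genes, and 9 genes of the lysosome, the oxidase and activation.

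The knockout libraries held 8444913, 5695530 and 10343820 fragments, and the wild type libraries 21815950, 14341398 and 8441944. BC027072 (chromosome 17, 72092895 to 72102225 in mm9) averaged 0.326 ± 0.0375 CPM (fragment counts scaled to library size by TMM) in knockout libraries and 269 ± 9.32 CPM in wild type libraries (SD, n = 3 each). Knockout replicates 1 and 3 carried 2047 and 2957 fragments of Y-linked genes and only 11 and 18 of Xist, which silences an X chromosome. Knockout replicate 2 and all 3 wild type libraries carried Xist (5905 fragments, against 17749, 13656 and 7763). The XY libraries were thus both knockout, and the knockout libraries came from at least 2 mice. Calls are also given with sex as a covariate and for the 4 Xist-positive libraries. In both fits the genotype effect rests on knockout replicate 2 alone, set against the 3 wild type libraries. The defining markers Cx3cr1, P2ry12, Tmem119, Csf1r and Aif1 had fragments in every library, with 121 fragments in all for Aif1, the least of these. Presence alone does not show which cells the fragments came from.

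A set of macrophage genes was moderately higher in knockout eyes. Of the 38 genes, 13 rose, none fell and 25 did not pass (edgeR quasi-likelihood test, Benjamini-Hochberg adjusted p under 0.05 over all 14919 genes), while 2.89% of all genes tested rose and 3.35% fell. With library totals in place of TMM, 19 of the 38 rose, beside 4.93% of all genes higher and 2.39% lower. The median log2 fold change of all genes was then 0.057, against 0.002 with TMM. With library sex added to the fit, which leaves knockout replicate 2 to carry the genotype effect, 2 of the 13 passed and the median log2 fold change of the 38 was 0.42, against 0.41 without it. Of the 38, 6 to 14 rose when 1 library was left out. Ctss, the gene of the lysosomal protease cathepsin S, changed most, by 1.11 ± 0.09 on the log2 scale (SE), and the other 12 risen genes lay between 0.32 and 0.86. The median log2 fold change of the 38 was 0.41, with a range of -0.14 to 1.11, against 0.002 over all genes. The change was above 0 for 36 of the 38 genes and for 50.6% of all genes. An unadjusted p under 0.05 was found for 28 of the 38 and for 19.0% of all genes. In 21 of the 38 all 3 knockout libraries lay above all 3 wild type libraries, as in 11.6% of all genes, and in 1, Lgmn, all 3 lay below, as in 11.7% of all genes. In whole-eye RNA, more macrophages and more RNA of these genes per cell cannot be told apart.

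**Figure D1:**
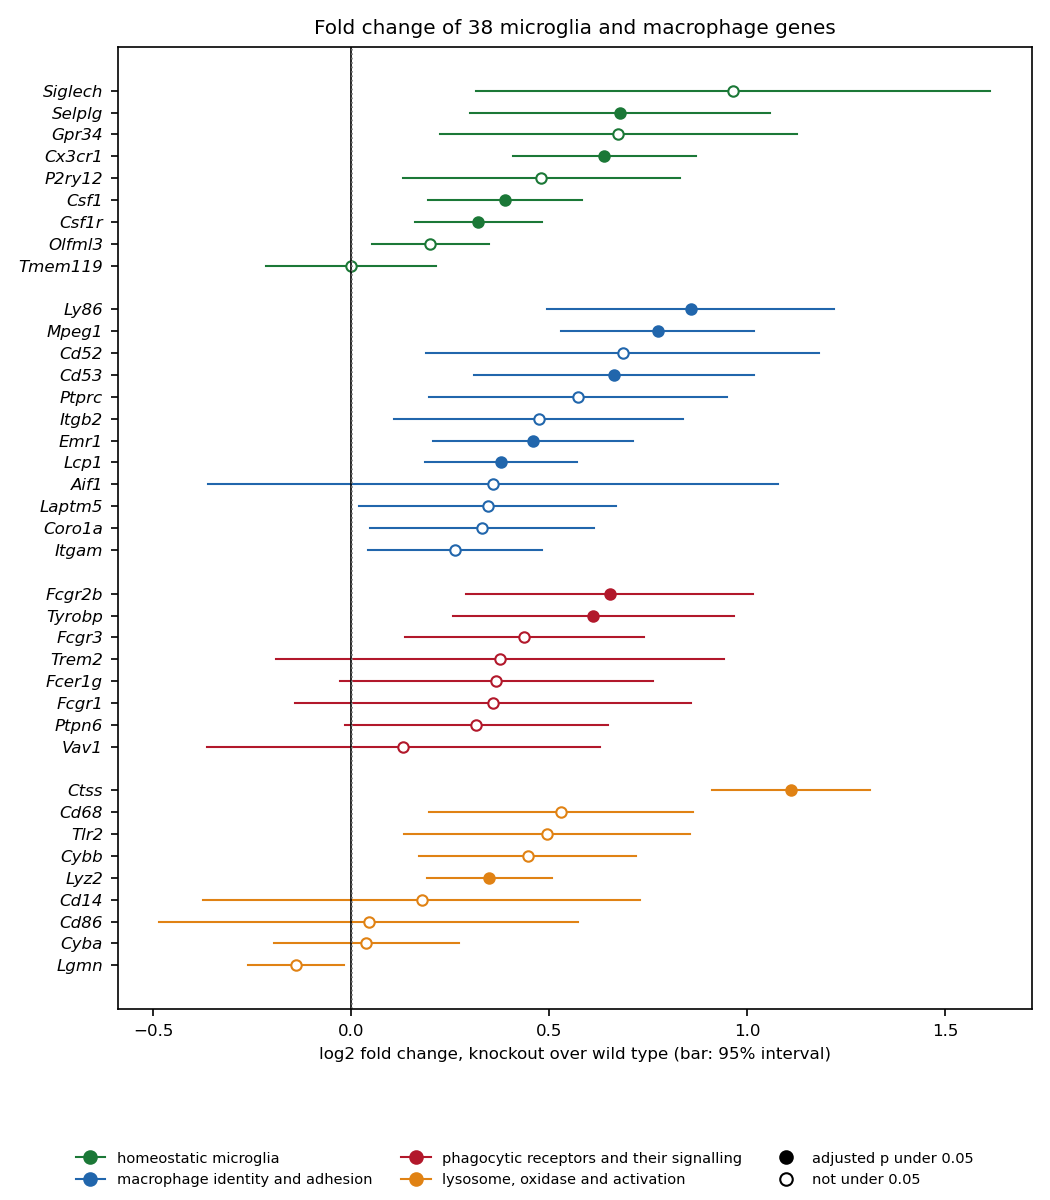
Log2 fold change of each of the 38 genes, knockout over wild type, with its 95% interval (edgeR, 3 knockout and 3 wild type libraries), grouped by role. Points lie between -0.14 (Lgmn) and 1.11 (Ctss), and 36 of 38 are above 0.

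The 4 groups of roles had similar medians. The homeostatic genes had a median log2 fold change of 0.48 with 4 of 9 risen, the identity and adhesion genes 0.47 with 5 of 12, the phagocytic receptors and signalling genes 0.37 with 2 of 8, and the lysosome, oxidase and activation genes 0.35 with 2 of 9. No test was made between these groups. The median over the 38 genes of the log2 ratio to the wild type mean was 0.55, 0.40 and 0.37 in the 3 knockout libraries, against 0.07, -0.05 and -0.02 in the 3 wild type libraries. Every knockout library therefore lay above every wild type library, knockout replicate 1 furthest. The phagocytic genes varied most among knockout libraries, with 0.58, 0.37 and 0.21, against 0.12, -0.04 and -0.06 in the wild type libraries. Summed over the 38 genes, the level per kilobase of transcript was 494, 465 and 462 CPM per kilobase in knockout libraries, against 408, 370 and 397 in wild type libraries.

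**Figure D2:**
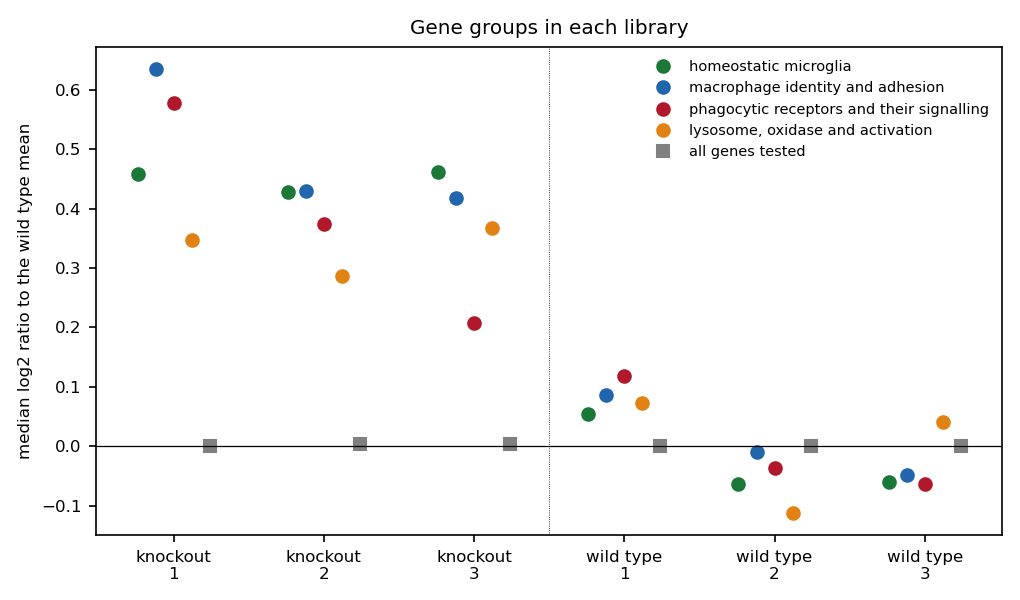
Median log2 ratio to the wild type mean (vertical axis) in each of the 6 libraries for the 4 groups of roles and for all genes tested. The 3 knockout libraries at the left lie above 0 for every group (0.21 to 0.63), while the wild type libraries lie between -0.11 and 0.12 and all genes stay near 0.

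The 250 bases before the start of some of these genes are shown because macrophage promoters are known for purine-rich sites of PU.1, the factor that specifies the lineage. RefSeq gave a start in build GRCm38.p6 for 28 of the 38 genes. The letters GAGGAA, the core of a PU.1 site, stood on either strand in 11 of these 28 (39.3%) and in 25.9% of 27025 mouse genes with such a window. They stood in 2 of 9 risen genes with a window, Ctss and Cd53, and in 9 of 19 that did not pass. The longer form GAGGAAGT, which contains GAGGAA, was in 1 of the 28, Vav1 (2.79% of all genes). The ETS-IRF composite, GGAA and GAAA with any 2 bases between them, was in 1, Fcgr2b (2.68% of all genes), and the STAT form TTCNNNGAA in 2, Fcgr1 and Siglech (8.13% of all genes). The core was searched after the counts of the longer form were seen, and a match of letters is not a bound site. The windows of Ctss (chr3:95526536-95526785, plus strand) and Cd53 (chr3:106790150-106790399, minus strand) represent risen genes with the core, those of Cx3cr1 (chr9:120068297-120068546, minus strand) and Mpeg1 (chr19:12460520-12460769, plus strand) risen genes without it, and that of Vav1 (chr17:57278850-57279099, plus strand) a gene with the long form that did not pass. They read 5′ to 3′ on the strand of the gene, with GAGGAA or its complement in capitals.
Ctss: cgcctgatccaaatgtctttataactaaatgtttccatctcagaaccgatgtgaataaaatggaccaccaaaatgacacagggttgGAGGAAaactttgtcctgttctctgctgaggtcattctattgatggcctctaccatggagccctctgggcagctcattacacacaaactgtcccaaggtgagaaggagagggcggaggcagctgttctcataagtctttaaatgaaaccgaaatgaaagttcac
Cd53: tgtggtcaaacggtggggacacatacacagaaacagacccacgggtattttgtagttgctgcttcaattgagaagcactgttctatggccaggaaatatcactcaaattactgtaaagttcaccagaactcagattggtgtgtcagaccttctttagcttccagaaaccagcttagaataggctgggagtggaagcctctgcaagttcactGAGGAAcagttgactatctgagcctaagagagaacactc
Cx3cr1: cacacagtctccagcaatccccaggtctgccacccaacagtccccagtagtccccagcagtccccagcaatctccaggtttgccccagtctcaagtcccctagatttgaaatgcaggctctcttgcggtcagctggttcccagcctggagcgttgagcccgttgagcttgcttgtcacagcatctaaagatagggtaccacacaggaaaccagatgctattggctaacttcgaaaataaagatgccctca
Mpeg1: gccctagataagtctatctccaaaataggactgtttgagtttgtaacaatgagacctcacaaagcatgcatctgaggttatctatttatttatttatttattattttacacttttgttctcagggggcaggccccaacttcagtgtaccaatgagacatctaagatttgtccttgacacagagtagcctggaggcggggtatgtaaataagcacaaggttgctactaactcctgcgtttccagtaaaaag
Vav1: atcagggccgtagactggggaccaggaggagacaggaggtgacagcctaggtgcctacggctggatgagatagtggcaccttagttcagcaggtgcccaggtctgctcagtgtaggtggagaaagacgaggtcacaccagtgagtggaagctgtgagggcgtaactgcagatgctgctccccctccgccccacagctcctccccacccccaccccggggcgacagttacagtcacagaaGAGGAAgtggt
In Ctss the core began 164 bases before the start, in Cd53 39 bases and in Vav1 11 bases before it.

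Among the homeostatic genes, Cx3cr1, Selplg, Csf1r and Csf1 rose. Cx3cr1 (chromosome 9, 119957811 to 119977400 in mm9, as all loci of members below) encodes the fractalkine receptor, by which microglia sense a ligand made by neurons. It had 25.2, 20.8 and 21.8 CPM in knockout libraries, against 14.5, 13.3 and 16.5 CPM in wild type libraries, so the groups were apart. Its log2 fold change was 0.64 ± 0.11 (SE, edgeR adjusted p = 0.00156). Selplg (chromosome 5, 114267807 to 114280510), the gene of a selectin ligand on leukocytes and microglia, had 6.09, 6.54 and 5.10 CPM in knockout libraries, against 3.72, 3.81 and 3.19 CPM in wild type libraries. The lowest knockout library again lay above the highest wild type one, and the change was 0.68 ± 0.18 on the log2 scale (edgeR adjusted p = 0.0309).

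The receptor and the ligand of the microglial survival signal rose together and by similar amounts. Csf1r, on chromosome 18, encodes the receptor tyrosine kinase that macrophages need to live. Its level was 78.2, 72.7 and 67.9 CPM in knockout libraries, against 63.0, 54.9 and 56.2 CPM in wild type libraries, a log2 fold change of 0.32 ± 0.08 (edgeR adjusted p = 0.0163). Csf1 (chromosome 3, 107543966 to 107563387) encodes a ligand of that receptor, which cells other than macrophages also make. It had 31.5, 30.8 and 28.6 CPM in knockout libraries, against 25.2, 21.8 and 21.5 CPM in wild type libraries, a change of 0.39 ± 0.09 on the log2 scale (edgeR adjusted p = 0.0172). In both genes the groups did not overlap. The ratio of Csf1 to Csf1r fragments was 0.403, 0.424 and 0.421 in knockout libraries, against 0.401, 0.397 and 0.382 in wild type libraries. Il34, the other ligand of Csf1r, had 8.47 ± 0.983 CPM in knockout libraries and 9.46 ± 1.15 CPM in wild type libraries (SD, n = 3 each) and did not pass (edgeR adjusted p = 0.590).

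Tmem119, a membrane protein often used to tell microglia from other macrophages, had nearly equal means in both genotypes (18.3 ± 1.49 CPM in knockout libraries and 18.4 ± 1.19 CPM in wild type libraries, SD, n = 3 each). It had 19.0, 16.5 and 19.3 CPM in knockout libraries, against 19.2, 17.1 and 19.0 CPM in wild type libraries, and the groups overlapped throughout. Its log2 fold change was -0.00 ± 0.10, with a 95% interval of -0.22 to 0.22, so a change of the size seen in Cx3cr1 or Csf1r lies outside it. The ratio of Cx3cr1 to Tmem119 fragments was 1.33, 1.26 and 1.13 in knockout libraries, against 0.753, 0.781 and 0.865 in wild type libraries. This ratio restates the values of both genes, and how many other gene pairs part the groups was not counted.

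Of the other homeostatic genes, P2ry12, a receptor for released nucleotides, had 5.97, 8.27 and 7.46 CPM in knockout libraries, against 5.02, 5.50 and 4.79 CPM in wild type libraries. All 3 knockout libraries were higher, but the log2 fold change of 0.48 ± 0.16 did not pass (edgeR adjusted p = 0.106). Olfml3, a secreted protein of microglia that other cells of the eye may also make, had 143, 135 and 149 CPM in knockout libraries, against 137, 116 and 118 CPM in wild type libraries. These ranges overlap (0.20 ± 0.07, edgeR adjusted p = 0.113). Gpr34, a lysophospholipid receptor on the X chromosome, had 5.27, 6.03 and 5.0 CPM in knockout libraries, against 2.79, 4.44 and 2.82 CPM in wild type libraries (0.67 ± 0.21, edgeR adjusted p = 0.0763). Siglech, a sialic acid binding lectin of microglia, had only 116 fragments in all and a change of 0.96 ± 0.31 that did not pass (edgeR adjusted p = 0.0794). The loci of P2ry12 and Gpr34 in the authors' files span other genes as well, so where their fragments came from is less certain, and no position is given for them.

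Among genes of macrophage identity and adhesion, Mpeg1, Ly86, Cd53, Emr1 and Lcp1 rose. Mpeg1 (chromosome 19, 12535269 to 12539775) encodes perforin-2, a pore-forming protein of macrophages. It had 22.5, 26.0 and 23.2 CPM in knockout libraries, against 14.6, 11.7 and 15.6 CPM in wild type libraries, a log2 fold change of 0.77 ± 0.11 (edgeR adjusted p = 0.000439). Ly86 (chromosome 13, 37437214 to 37510905), or MD-1, the partner of a toll-like receptor homologue, had 7.96, 6.54 and 6.89 CPM in knockout libraries, against 3.91, 4.44 and 3.32 CPM in wild type libraries. Its change of 0.86 ± 0.17 was the next largest after Ctss among the 13 (edgeR adjusted p = 0.00523). In both genes the gap between the groups was wider than the range within either group.

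Cd53 (chromosome 3, 106561779 to 106593067) encodes a tetraspanin of leukocytes. It had 8.43, 9.13 and 8.78 CPM in knockout libraries, against 5.44, 6.63 and 4.05 CPM in wild type libraries (0.66 ± 0.17, edgeR adjusted p = 0.0245). Emr1 (chromosome 17, 57498109 to 57622952) encodes F4/80, the classical surface antigen of mouse macrophages, and had 16.5, 15.7 and 15.2 CPM in knockout libraries, against 12.8, 11.1 and 9.82 CPM in wild type libraries (0.46 ± 0.12, edgeR adjusted p = 0.0293). Lcp1 (chromosome 14, 75536232 to 75630610) encodes L-plastin, which bundles actin in leukocytes. Its 25.3, 26.4 and 25.5 CPM in knockout libraries stood against 21.0, 19.4 and 18.2 CPM in wild type libraries (0.38 ± 0.09, edgeR adjusted p = 0.0181). The groups of these 3 genes did not overlap.

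The remaining 7 identity genes lay above 0 without passing. Aif1, the gene of the microglial stain Iba1, had 3.04, 2.41 and 1.04 CPM in knockout libraries, against 1.53, 1.41 and 2.09 CPM in wild type libraries. Knockout replicate 3 was the lowest of all 6 libraries and knockout replicate 1 the highest. The log2 fold change of 0.36 had a 95% interval of -0.36 to 1.08 (edgeR adjusted p = 0.643). That interval excludes neither no change nor a change of the size seen in Cx3cr1. Coro1a, an actin regulator of leukocytes, had 12.9, 14.1 and 10.5 CPM in knockout libraries, against 10.3, 9.73 and 8.84 CPM in wild type libraries, just apart (0.33 ± 0.13, edgeR adjusted p = 0.178). Laptm5, a lysosomal membrane protein of blood cells, had 24.7, 20.8 and 14.4 CPM in knockout libraries, against 14.3, 16.1 and 16.7 CPM in wild type libraries. Its knockout replicate 3 lay within the wild type range (0.34 ± 0.15, edgeR adjusted p = 0.230).

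Itgam, the alpha chain of complement receptor 3 (CD11b), had 33.5, 29.6 and 32.7 CPM in knockout libraries, against 30.4, 22.9 and 26.4 CPM in wild type libraries, with wild type replicate 1 inside the knockout range (0.26 ± 0.10, edgeR adjusted p = 0.167). Its beta chain Itgb2 had 5.76 ± 0.385 CPM in knockout libraries and 4.09 ± 0.454 CPM in wild type libraries (SD, n = 3 each; 0.47 ± 0.17, edgeR adjusted p = 0.128). Cd52, a small glycoprotein of leukocytes, had 4.80, 2.93 and 3.40 CPM in knockout libraries, against 2.05, 2.47 and 2.70 CPM in wild type libraries (0.69 ± 0.23, edgeR adjusted p = 0.104). Ptprc, the pan-leukocyte phosphatase CD45, came closest to passing among the 7, at 0.57 ± 0.18 (edgeR adjusted p = 0.0707). Cd52 and Itgb2 were higher in every knockout library than in any wild type library, and Ptprc was not.

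**Figure D3:**
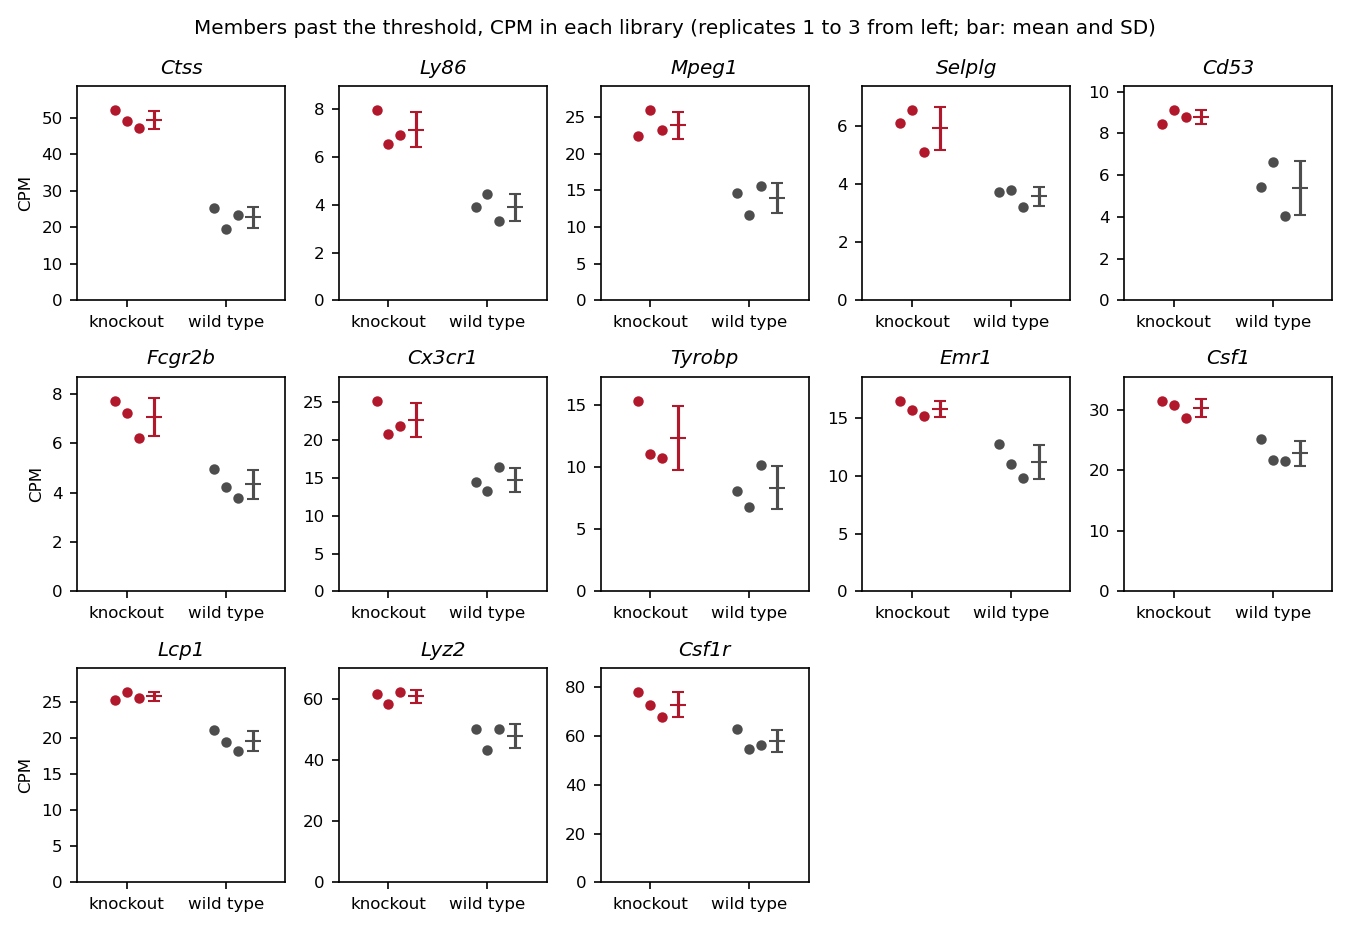
CPM of the 13 risen genes in each library (vertical axis from 0), knockout left and wild type right in each panel, with points for replicates and a bar for the mean and SD. In every panel the lowest knockout library lies above the highest wild type library, widest in Ctss (47.3 to 52.2 against 19.7 to 25.4 CPM) and narrowest in Tyrobp (10.8 against 10.2 CPM).

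Among phagocytic receptors and their signalling genes, Tyrobp and Fcgr2b rose. Tyrobp (chromosome 7, 31198807 to 31202598), the adaptor known as DAP12 that carries the signal of Trem2, had 15.3, 11.0 and 10.8 CPM in knockout libraries, against 8.04, 6.77 and 10.2 CPM in wild type libraries. Knockout replicate 1 was well above the rest and wild type replicate 3 came close to the lowest knockout library (0.61 ± 0.17, edgeR adjusted p = 0.0394). Fcgr2b (chromosome 1, 172890689 to 172906202), the inhibitory receptor for IgG, had 7.73, 7.23 and 6.23 CPM in knockout libraries, against 4.97, 4.23 and 3.81 CPM in wild type libraries, without overlap (0.65 ± 0.17, edgeR adjusted p = 0.0303).

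Trem2, the lipid-sensing receptor upstream of Tyrobp, had 3.86, 2.76 and 2.08 CPM in knockout libraries, against 2.60, 1.83 and 1.96 CPM in wild type libraries. The groups overlapped and its 169 fragments left a 95% interval of -0.19 to 0.94 around a log2 fold change of 0.38 (edgeR adjusted p = 0.506). The ratio of Tyrobp to Trem2 fragments was 3.97, 4.0 and 5.18 in knockout libraries, against 3.09, 3.69 and 5.19 in wild type libraries, and did not part the genotypes. Fcer1g, the shared gamma chain of activating Fc receptors, had 6.91, 5.86 and 4.62 CPM in knockout libraries, against 4.18, 4.87 and 4.30 CPM in wild type libraries (0.37 ± 0.19, edgeR adjusted p = 0.307). Fcgr3, an activating IgG receptor that pairs with Fcer1g, had 8.78, 9.30 and 10.6 CPM in knockout libraries, against 7.76, 6.35 and 7.0 CPM in wild type libraries. Its groups were apart, but it did not pass (0.44 ± 0.14, edgeR adjusted p = 0.0867). Ptpn6, the phosphatase SHP-1 that damps such signals, had 10.2, 7.92 and 7.27 CPM in knockout libraries, against 6.51, 6.63 and 7.49 CPM in wild type libraries (0.32 ± 0.16, edgeR adjusted p = 0.292). Fcgr1, the high-affinity IgG receptor (0.36 ± 0.24, edgeR adjusted p = 0.461), and Vav1, an exchange factor downstream of these receptors (0.13 ± 0.23, edgeR adjusted p = 0.853), did not pass either. Fc receptor genes resemble one another, and how reads shared between them were counted was not tested.

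Of the lysosome, oxidase and activation genes, Ctss and Lyz2 rose. Ctss (chromosome 3, 95330708 to 95360325) encodes cathepsin S, a protease of macrophage lysosomes that also trims the invariant chain for antigen presentation. It had 52.2, 49.1 and 47.3 CPM in knockout libraries, against 25.4, 19.7 and 23.3 CPM in wild type libraries, and the gap between the groups was wider than the range within either group. The log2 fold change was 1.11 ± 0.09, with a 95% interval of 0.91 to 1.31 (edgeR adjusted p = 1.62e-06). Lyz2 (chromosome 10, 116714597 to 116719328), the lysozyme of myeloid cells, had 61.8, 58.6 and 62.5 CPM in knockout libraries, against 50.4, 43.4 and 50.2 CPM in wild type libraries (0.35 ± 0.07, edgeR adjusted p = 0.00829). It may share reads with its near copy Lyz1.

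Legumain and the other 6 genes of this group did not pass. Lgmn, the asparaginyl protease legumain, which many cell types hold, had 183, 185 and 180 CPM in knockout libraries, against 202, 195 and 206 CPM in wild type libraries. It was the only one of the 38 with every knockout library below every wild type library, and it did not pass (-0.14 ± 0.06, edgeR adjusted p = 0.182). The ratio of Ctss to Lgmn fragments was 0.286, 0.266 and 0.262 in knockout libraries, against 0.126, 0.101 and 0.113 in wild type libraries. Cd68, a glycoprotein of phagocyte lysosomes used as a marker of active microglia, had 7.49, 6.03 and 7.36 CPM in knockout libraries, against 4.93, 4.72 and 5.03 CPM in wild type libraries. Its groups did not overlap, and it stayed short of the threshold (0.53 ± 0.16, edgeR adjusted p = 0.0591).

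Cyba, the p22phox chain of the phagocyte oxidase, had 13.5, 14.5 and 13.7 CPM in knockout libraries, against 13.6, 12.5 and 14.6 CPM in wild type libraries (0.04 ± 0.11, edgeR adjusted p = 0.901). Its partner Cybb, the catalytic gp91phox chain on the X chromosome, had 13.4 ± 0.798 CPM in knockout libraries and 9.67 ± 1.26 CPM in wild type libraries (SD, n = 3 each; 0.45 ± 0.13, edgeR adjusted p = 0.0523). The ratio of Cybb to Cyba fragments was 1.01, 0.976 and 0.917 in knockout libraries, against 0.808, 0.678 and 0.655 in wild type libraries. Tlr2, a toll-like receptor for bacterial lipoproteins, had a log2 fold change of 0.49 ± 0.17 (edgeR adjusted p = 0.107). Cd14, the co-receptor for endotoxin, had 2.93, 4.13 and 2.55 CPM in knockout libraries, against 3.30, 1.90 and 2.82 CPM in wild type libraries (0.18 ± 0.26, edgeR adjusted p = 0.787). The T cell co-stimulator Cd86 had 2.21 ± 0.634 CPM in knockout libraries and 2.2 ± 0.120 CPM in wild type libraries (SD, n = 3 each, edgeR adjusted p = 0.952). For Cd14 and Cd86, the intervals of -0.37 to 0.73 and -0.48 to 0.57 do not exclude changes as large as those of Csf1, Lyz2 and Csf1r.

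Genes with more fragments passed more often and had smaller errors. The 19 genes with more fragments (555 to 13329 over all libraries) had a median SE of 0.11 and 9 risen genes, and the 19 with fewer (116 to 511) a median SE of 0.19 and 4 risen genes. The median log2 fold change was 0.38 in the deeper 19 genes and 0.48 in the other 19. Per kilobase of transcript, Lgmn (97.4 CPM per kilobase in knockout libraries, 107 in wild type libraries), Olfml3 (82.0 in knockout, 71.3 in wild type) and Lyz2 (57.7 in knockout, 45.4 in wild type) were the most abundant. Siglech (0.981 in knockout, 0.572 in wild type), Cd86 (0.871 in knockout, 0.865 in wild type) and Vav1 (0.722 in knockout, 0.622 in wild type) were the least. Ctss was the fourth in knockout libraries at 36.6 CPM per kilobase, and the fifth in wild type libraries at 16.8, after Cyba (18.3 in knockout libraries and 17.9 in wild type libraries). Lengths were weighted by the fragments of each isoform.

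The calls rest on few libraries. Cx3cr1, Mpeg1, Ly86, Ctss and Lyz2 passed without each of the 6 libraries in turn (edgeR adjusted p of at most 0.0402). Of the 13 risen genes, 6 passed without knockout replicate 1, 5 without knockout replicate 2, 10 without knockout replicate 3, 10 without wild type replicate 1, 6 without wild type replicate 2 and 6 without wild type replicate 3. Selplg passed only without knockout replicate 3, Emr1 only without wild type replicate 1 and Cd53 only without wild type replicate 2, and their highest adjusted p from edgeR was 0.125, 0.113 and 0.0951. Csf1r, Csf1 and Fcgr2b passed only without knockout replicate 3 or wild type replicate 1 (highest adjusted p 0.0925, 0.0792 and 0.134). Lcp1 passed only without knockout replicate 1 or wild type replicate 1, and Tyrobp only without knockout replicate 3 or wild type replicate 3 (highest adjusted p 0.0694 and 0.227). DESeq2 called 10 of the 13, all but Selplg, Emr1 and Fcgr2b (2.17% of all genes higher), and limma on log2(FPKM + 1) called none of the 38 and 0.0804% of all genes as higher.

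With sex as a covariate, the XY libraries are taken up by the sex term and the genotype effect is that of knockout replicate 2 against the wild type. Ctss and Mpeg1 passed there (edgeR adjusted p = 0.00158 and 0.0183), beside 0.610% of all genes higher. In the 4 Xist-positive libraries, where knockout replicate 2 alone stands for the knockout and is assumed to vary like the wild type, Ctss and Mpeg1 passed too, beside 0.619% of all genes higher. Both fits set the same libraries against each other, so neither adds support to the other. There all 13 risen genes and 35 of the 38 lay above 0, and Lgmn, Tmem119 and Cd86 lay at -0.12, -0.16 and -0.34 on the log2 scale. Ctss was 1.10, Mpeg1 0.90 and Cx3cr1 0.51, against 1.11, 0.77 and 0.64 over all 6 libraries. Other genes moved further, in both directions. Siglech was 0.29 and Ptprc 0.15, against 0.96 and 0.57 over all libraries. Vav1 was 0.53 and Cd14 0.60, against 0.13 and 0.18. The median of the 38 was 0.42, against 0.41 over all libraries. Since knockout replicate 2 and the wild type libraries also enter the main fit, these values are not independent of it. Genotype and sex cannot be fully told apart here. Cybb and Gpr34, the members on the X chromosome, had fitted changes of 0.53 and 0.84 in the Xist-positive libraries, against 0.45 and 0.67 over all libraries.

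**Figure D4:**
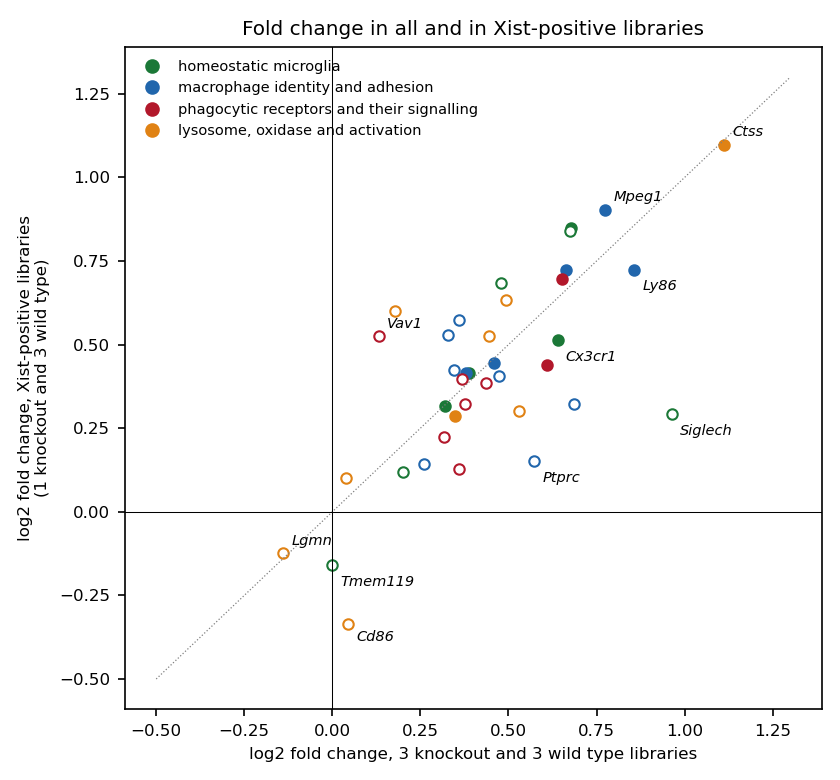
Log2 fold change of the 38 genes in the 4 Xist-positive libraries (vertical axis) against that over all 6 libraries (horizontal axis); 4 libraries are shared by both. Of the 38 genes, 35 lie above 0 on the vertical axis, and Ctss is highest on both axes (1.10 and 1.11).

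The 38 genes lie on 18 chromosomes, with 7 on chromosome 3, of which Ctss, Csf1 and Cd53 rose. On chromosome 17, which carries BC027072, lie Aif1, Trem2, Vav1 and Emr1, at 36.8, 23.6, 14.6 and 14.5 megabases from it in mm9. Of these 4, Emr1 rose.

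Isoforms were tested in the same way. The table held 46 isoforms of the 38 genes, of which 35 were tested and 1 rose, that of Ctss (1.12 ± 0.11 on the log2 scale, edgeR adjusted p = 0.0115), beside 0.550% of all isoforms higher and 1.02% lower. None fell, an unadjusted p under 0.05 was found for 25 of the 35 and for 13.6% of all isoforms, and DESeq2 called 7 higher and 1 lower (2.30% of all isoforms higher). Csf1, Fcgr2b, Itgam, Ptpn6, Ptprc and Vav1 had several isoforms. Most Csf1 fragments were assigned to NM_007778 in every library, and its log2 fold change of 0.46 ± 0.14 was near that of the gene. For Vav1 the estimates put nearly all fragments on 1 isoform in some libraries and on another in others of the same genotype. For Ptpn6 they put nearly all on NM_013545 in knockout replicates 1 and 2 and wild type replicate 3, and divided them between both isoforms in the other 3 libraries. For these genes no isoform change is given.

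In the authors' deposited table of the same comparison, Siglech, Vav1 and Cd86 were marked as not tested. Of the 38 genes, 16 had a q-value under 0.05 there, all higher in the knockout, beside 3.18% of all genes the authors tested. Of these calls in the authors' deposited table, 12 are among the 13 risen genes, Lyz2 being the one left out (q = 0.0812). The authors' deposited table adds Ptprc, Fcgr3, Cybb and Tlr2, with q-values of 0.0016, 0.0236, 0.0135 and 0.0167. Both tests read the same libraries and are not independent.

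Other genes of macrophages were read from lists by role, again with 2.89% of all genes higher and 3.35% lower. Of 12 transcription factors tested, Irf8, which macrophages need for their identity, rose with 6.03 ± 1.39 CPM in knockout libraries and 3.63 ± 0.508 CPM in wild type libraries (SD, n = 3 each; 0.77 ± 0.20, edgeR adjusted p = 0.0266, highest without 1 library 0.170). Mef2c, which neurons and muscle also express, fell (-0.32 ± 0.06, edgeR adjusted p = 0.0032). Spi1, the gene of PU.1, was not analysed here. Among other homeostatic genes, most of which did not pass, Cd33 and Cmtm6 rose. The list had a median log2 fold change of 0.12. Cd33, an inhibitory lectin, changed by 1.08 ± 0.24 (edgeR adjusted p = 0.0101) and Cmtm6 by 0.29 ± 0.07 (edgeR adjusted p = 0.0239). Crybb1, best known as a crystallin of the lens, fell (-0.34 ± 0.06, edgeR adjusted p = 0.00301), at 4341 ± 82.5 CPM in knockout libraries and 5482 ± 352 CPM in wild type libraries.

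Genes of damage-associated microglia, the state described around dying neurons, mostly did not pass. Of 22 tested, Lpl, a lipase, rose (0.33 ± 0.07, edgeR adjusted p = 0.0084), and the list had a median log2 fold change of 0.05. Apoe had 917 ± 70.1 CPM in knockout libraries and 824 ± 31.2 CPM in wild type libraries (edgeR adjusted p = 0.237). Clec7a, a receptor for fungal sugars, had 3.73 ± 0.654 CPM in knockout libraries and 2.18 ± 0.294 CPM in wild type libraries (0.70 ± 0.22, edgeR adjusted p = 0.0776). Gpnmb and Spp1 had log2 fold changes of -0.04 and -0.14. These last genes are also expressed by other cells of the eye. Ctsd and Ctsb of this list averaged 730 and 533 CPM in wild type libraries, against 14.7 CPM for Cx3cr1. Which cells gave these fragments was not tested, so the list median cannot be read as that of microglia alone.

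Of 24 genes of ITAM and integrin signalling, Itga4 and Fgr rose, with a list median of 0.20. Itga4, an integrin chain that binds Vcam1, had 59.6, 62.0 and 69.3 CPM in knockout libraries, against 37.7, 40.7 and 35.6 CPM in wild type libraries. Its change of 0.74 ± 0.08 (edgeR adjusted p = 1.54e-05) passed without each library, and the adjusted p was 0.00974 with sex as a covariate, where 1 knockout library carries the effect. Fgr, a Src-family kinase of myeloid cells, had 80 fragments in all and changed by 1.09 ± 0.29 (edgeR adjusted p = 0.0345). It did not pass when any 1 library was left out (edgeR adjusted p of 0.0522 to 0.154). Of 17 ligands and checkpoints, Cd47, the signal that restrains phagocytosis, rose with 49.3 ± 3.15 CPM in knockout libraries and 36.7 ± 1.44 CPM in wild type libraries (SD, n = 3 each; 0.42 ± 0.07, edgeR adjusted p = 0.00204, and 0.0454 with sex as a covariate, on the same limited basis). Vcam1 (0.33 ± 0.08, edgeR adjusted p = 0.0247) and Tgfb3 (0.30 ± 0.08, edgeR adjusted p = 0.029) rose as well, and each lost its call without 5 of the 6 libraries. Cx3cl1, the ligand of Cx3cr1, had 67.1 ± 3.64 CPM in knockout libraries and 69.8 ± 2.99 CPM in wild type libraries (edgeR adjusted p = 0.660).

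None of 10 chemokine and cytokine genes tested of 21 listed passed in edgeR, DESeq2 or limma, with 4 at an unadjusted p under 0.05 in edgeR and a median of 0.43. Of 20 genes of the toll-like receptor pathway, the adaptors Irak2 (0.37 ± 0.08, edgeR adjusted p = 0.011) and Tirap (0.43 ± 0.10, edgeR adjusted p = 0.0205) rose, with a median of 0.31. Leaving out 1 library ended the calls of Cd33, Cmtm6, Lpl, Irak2 and Tirap in some fits, with a highest adjusted p from edgeR of 0.0554, 0.127, 0.0537, 0.0567 and 0.102.

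Markers of other immune cells were read beside these. None of 12 perivascular and tissue macrophage markers tested of 17 listed passed in edgeR, DESeq2 or limma, with 3 at an unadjusted p under 0.05 in edgeR. The summed level of the list was 276 to 310 CPM in knockout libraries and 270 to 319 CPM in wild type libraries. Of 6 monocyte markers tested of 10 listed, Ifitm3, which many cells hold, rose (0.44 ± 0.12, edgeR adjusted p = 0.0386, highest without 1 library 0.206), with 4 of the 6 at an unadjusted p under 0.05 and a median of 0.26. The other 3 of these 4, Ccr2, Plac8 and S100a4, had positive changes that did not pass. The sum was 322 to 366 CPM in knockout libraries and 266 to 493 CPM in wild type libraries. Most of it was Fn1, with 222, 217 and 208 CPM in knockout libraries, against 394, 165 and 182 CPM in wild type libraries. Ccr2 had 8.49 ± 1.47 CPM in knockout libraries and 5.62 ± 0.507 CPM in wild type libraries (0.55 ± 0.16, edgeR adjusted p = 0.0598). Plac8 had a log2 fold change of 0.29 ± 0.12 (edgeR adjusted p = 0.172) and S100a4 of 0.22 ± 0.09 (edgeR adjusted p = 0.211). Of 5 neutrophil markers tested of 16 listed, Lcn2 rose (0.84 ± 0.24, edgeR adjusted p = 0.0475, highest without 1 library 0.234). The list had a median of 0.81, with 4 of the 5 at an unadjusted p under 0.05. Ltf (1.0 ± 0.40, edgeR adjusted p = 0.172) and Csf3r (0.81 ± 0.27, edgeR adjusted p = 0.103) had positive changes and Mmp9 a negative one (-0.32 ± 0.12, edgeR adjusted p = 0.153), and none of them passed. Mpo and Elane were at 0 in every library, and the sum was 22.6 to 24.1 CPM in knockout libraries and 19.5 to 22.1 CPM in wild type libraries. The part of monocytes or neutrophils in the macrophage results was not tested.

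Few lymphoid, dendritic or mast cell markers were deep enough to test. None of 3 dendritic and 3 T and NK cell markers passed in edgeR, DESeq2 or limma, with 1 and 0 at an unadjusted p under 0.05 in edgeR. The dendritic sum was 15.9 to 17.1 CPM in knockout libraries and 12.9 to 14.1 CPM in wild type libraries, and the T and NK cell sum 17.6 to 20.7 CPM in knockout libraries and 18.1 to 20.9 CPM in wild type libraries. Of 2 B and plasma cell markers tested of 11 listed, Sdc1, listed for plasma cells and abundant in epithelia, rose (0.25 ± 0.06, edgeR adjusted p = 0.014, highest without 1 library 0.0683). Both had an unadjusted p under 0.05 in edgeR. Their median log2 fold change was -0.06, so the other marker had a negative change, which did not pass. The B and plasma cell sum was 164 to 170 CPM in knockout libraries and 137 to 148 CPM in wild type libraries. Hdc, the histamine-making enzyme of mast cells, fell (-1.20 ± 0.24, edgeR adjusted p = 0.00479), and the mast cell sum was 50.2 to 53.7 CPM in knockout libraries and 48.6 to 50.1 CPM in wild type libraries.

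Red blood cell genes moved the other way from the macrophage genes. Of 6 red blood cell and platelet markers tested of 12 listed, Beta-s (-1.37 ± 0.15, edgeR adjusted p = 2.23e-05), Hbb-b1 (-1.25 ± 0.15, edgeR adjusted p = 5.8e-05), Hba-a1 (-1.69 ± 0.29, edgeR adjusted p = 0.00145) and Alas2 (-1.0 ± 0.18, edgeR adjusted p = 0.00226) fell, while the platelet genes Pf4 and Itga2b did not pass (edgeR adjusted p = 0.920 and 0.433). The summed level of the list was 66.9 to 101 CPM in knockout libraries and 195 to 266 CPM in wild type libraries. Of these 4, Beta-s also passed with sex as a covariate (edgeR adjusted p = 0.0244), where again 1 knockout library carries the effect. How the amount of blood left in the eyes bears on the macrophage genes was not tested.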

How the data were processed

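Per the labels' protocols, RNA was isolated from whole eyes with a Qiagen RNeasy kit and libraries were made by standard Illumina methods; strandedness is not given in the sources used here. The submitters' processing notes name TopHat2 2.0.12, Cufflinks 2.2.1, Cuffdiff 2.2.1 and build mm9. The authors deposited, per the file headers, unscaled estimated counts of fragments for each gene, isoform and library, and FPKM, which carry the authors' scaling by length and library. The deposited comparison table holds the authors' p-values and q-values and mean FPKM per genotype. Of the estimated gene counts, 98.5% were whole within 1e-06, and all were rounded. The software's failed estimates, 7 genes and 12 isoforms, were left out. Libraries are numbered from 0 in the files and were read in order as replicates 1 to 3.

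Genes were tested with edgeR 4.0.16 in R 4.3.3 (TMM, filterByExpr with minimum count 10 and minimum total 15, quasi-likelihood test of genotype, no covariate, 6 libraries) and adjusted over all genes tested. The design allowed for limma on FPKM had there been no counts. The SE is the size of the log2 fold change over the square root of F. Levels are TMM-scaled CPM, in ratios to the wild type mean with 0.5 CPM added. Isoforms were tested likewise at a mean FPKM of at least 1. The fit was also run on simulated counts, with changes larger than those of most risen genes and no sex effect. That run therefore does not show how well changes of the size found here are called. Alternatives were DESeq2 1.42.0, limma 3.58.1 on log2(FPKM + 1) or log2(FPKM + 0.1), other scalings and filters, sex as a covariate, Xist-positive libraries, the replicate number as a block, and each library left out. Promoter sequences come from RefSeq (GRCm38.p6) and were matched by symbol; no other coordinate of that build is used.

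The 38 genes, their groups and the further lists were chosen with earlier results of these data known, so counts over them describe these libraries. Ratios of paired genes restate the fragments of each gene and add no separate support. Text values cover each of the 38 genes, all risen genes and chosen markers library by library, and of each further list up to 4 risen genes. Genes of those lists that did not pass were named after their values were seen. A listed gene is not reported here.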

Additional observations from a re-analysis of the deposited data

How the results depend on the processing

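None of the 13 risen genes changed sign in the 17 settings run. Of the 38 genes, 0 rose in limma on log2(FPKM + 1) or log2(FPKM + 0.1), 2 with library sex in the fit, 2 among Xist-positive libraries, and 6 to 14 with 1 library left out. Of all genes, 736 were higher with library totals (357 lower, against 431 higher and 500 lower with TMM), 12 higher and 4 lower in either limma fit, 91 higher and 144 lower with library sex in the fit, and 96 higher and 149 lower in the Xist-positive libraries. With 1 library left out, 271 to 425 were higher and 315 to 460 lower. In the further lists, 15 genes rose and 7 fell. There 25 rose with library totals, 8 in DESeq2, 0 in either limma fit (0 fell), 2 with library sex in the fit (1 fell), 2 in the Xist-positive libraries (3 fell), and 5 to 14 with 1 library left out. Of the isoforms of the 38 genes, DESeq2 called 7 higher and 1 lower. Both limma fits, library sex in the fit, the Xist-positive libraries and the replicate block called 0 higher, and leaving out 1 library called 0 to 1.

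The median log2 fold change of the homeostatic genes was 0.53 with library totals, 0.32 in limma on log2(FPKM + 1), 0.42 both with library sex in the fit and in the Xist-positive libraries, and 0.40 to 0.55 with 1 library left out. For the identity genes it was 0.33 in limma on log2(FPKM + 1) and 0.40 to 0.59 with 1 library left out, and for the phagocytic genes 0.22 to 0.57. For the lysosome and activation genes it was 0.40 with library totals, 0.27 and 0.28 in the limma fits, 0.30 both with library sex in the fit and in the Xist-positive libraries, and 0.28 to 0.44 with 1 library left out. The cause of these shifts was not tested.

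Same-numbered libraries deviated together weakly (correlations over genes of 0.14, 0.08 and -0.04), so the numbers were not taken as pairs. With the replicate block all 13 genes kept their call, and Ptprc, Gpr34 and Cybb passed as well. The share of all genes called in that fit is not given here, so these counts cannot be set beside it. Low fragment numbers limit Siglech, Aif1, Cd86 and Trem2 most.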
